A study of Rattus norvegicus with 9 samples.

Results

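Cela1, Scnn1a, Phf19 and Rgsl2h are 4 of the 16730 genes listed in both deposited count tables of rat liver. They were selected on their read counts, which fell most clearly in fibrotic model livers against normal livers, and the question followed here is whether tormentic acid (TA), a plant triterpenoid, brought them back. Liver RNA of 9 male Sprague-Dawley rats was sequenced, 3 rats in each of 3 groups, and all rats were fasted for 12 h before the livers were taken. Model rats had received carbon tetrachloride (CCl4), a hepatotoxin, by mouth at 2 ml/kg as a 50% solution in oil, 2 doses a week for 9 weeks. TA rats had received the same CCl4 course and then TA for 6 weeks. The TA libraries carry no dose in their own labels and are taken as 1 group at 3.0 mg/kg from the series' design text. Normal rats had received saline in place of CCl4. What the model rats received during the 6 weeks of TA is not given in the sources used here. Each library is a whole piece of liver, so that fewer cells of a type and less RNA per cell cannot be told apart.

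The 4 genes belong to unrelated families. Cela1 encodes a chymotrypsin-like elastase, a secreted serine protease that cuts elastin and is best known from digestive juice of the exocrine pancreas. Scnn1a encodes the alpha subunit of the epithelial sodium channel, which lets sodium into kidney, lung and colon epithelium under the control of aldosterone. Phf19 encodes a Polycomb-like protein that reads methylated histone H3 and helps bring Polycomb repressive complex 2 (PRC2), the enzyme complex that places a silencing mark on histone H3, to its target genes. Rgsl2h is named for its likeness to the regulators of G protein signalling (RGS), proteins that switch off G proteins downstream of cell surface receptors. In the fibrotic liver, hepatic stellate cells turn into collagen-producing cells and bile duct cells multiply, while hepatocytes lose part of their metabolic gene expression.

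Counted reads per liver ranged from 13156735 to 18090405. A library that stood apart was that of the first model rat, whose 50 most counted genes held 27.9% of its reads, against 40.4% to 45.7% elsewhere. Hepatocyte markers had counts in every group, as the liver label requires, and their summed level ran from 151397 to 192121 CPM (reads of a gene per 1000000 reads, scaled by edgeR's TMM factors) in the normal livers, from 41039 to 132384 in the model livers and from 130448 to 209882 in the TA livers. The summed level of 10 stellate cell and fibroblast markers ran from 254 to 399 CPM in the normal, from 1326 to 12936 in the model and from 726 to 1252 in the TA livers. Whether these shifts had a part in the levels of the 4 genes was not tested.

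The 4 genes did not come back alike. Cela1 was below its model mean in every TA liver, Phf19 was around its model mean, Scnn1a lay between the model and the normal livers in every TA liver, and Rgsl2h was near 0 in the model livers and varied between TA livers from 0 to 16 reads. Since the model and normal livers were used to choose the genes, their fall in Model VS Normal is a description and carries no test. The choice also favours a rise in TA VS Model and a fall in TA VS Normal, which share those livers.

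**Figure D1:**
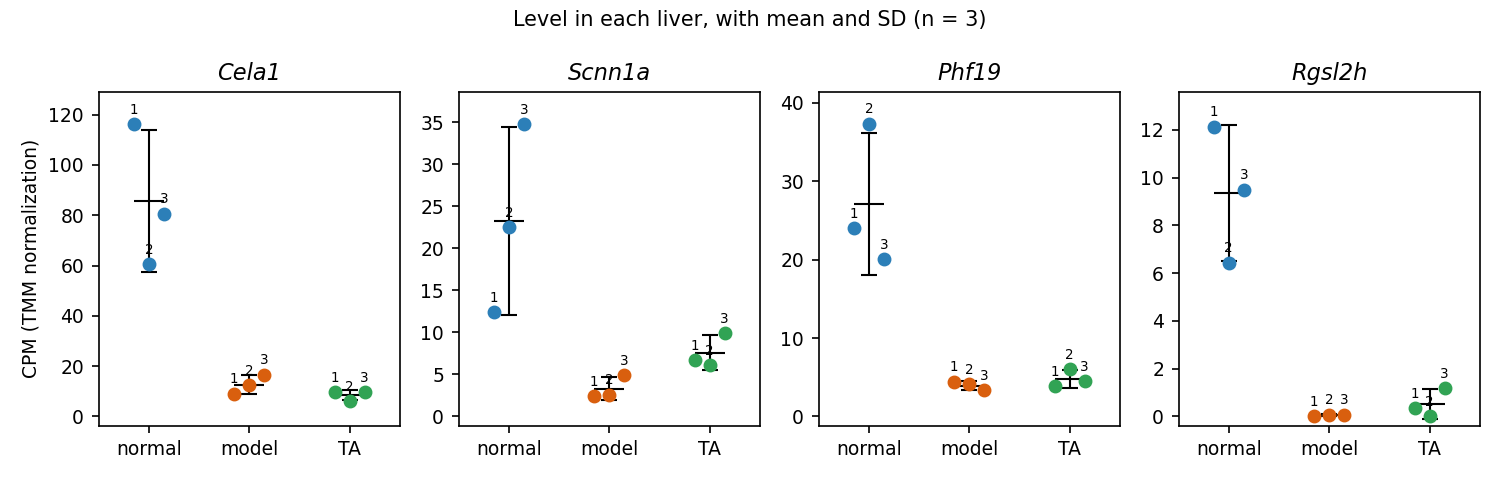
Level of each gene in each of the 9 livers, in CPM after TMM normalization, on a linear axis for each gene. Points are single rats with their replicate number, and the horizontal mark and bar give the mean and SD of 3 rats. All normal livers lie above all model and TA livers for the 4 genes, and Scnn1a is the gene whose TA livers all lie above its model livers.

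Cela1 had 1399, 939 and 960 reads in normal rats, 202, 189 and 235 reads in model rats, and 136, 72 and 129 reads in TA rats. Every TA liver had fewer Cela1 reads than every model liver, and both groups lay far under the normal livers. After TMM normalization the level was 85.7 ± 28.2 CPM in the normal livers, 12.7 ± 3.79 CPM in the model livers and 8.47 ± 2.06 CPM in the TA livers (SD, n = 3). The fitted log2 fold change in Model VS Normal was -2.75 (SE 0.35), which left 14.8% of the normal level. All 4 genes were lower in the model livers without overlap, as were 17.3% of the 12730 genes tested, and 1.01% of those genes were called lower at an adjusted p under 0.05; the choice of the genes fixed both.

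No rise of Cela1 was found in the TA livers. The log2 fold change in TA VS Model was -0.58 (SE 0.33, 95% interval -1.35 to 0.19), with an adjusted p of 0.410 by edgeR's quasi-likelihood test and an exact permutation p of 0.3 for 3 against 3 rats. On the CPM scale the groups overlapped, since the first model liver with 9.07 CPM lay under 2 TA livers with 9.68 and 9.62 CPM. On the FPKM scale the authors deposited, which adjusts for gene length and library total alone, Cela1 was at 13.9, 13.0 and 15.8 in the model livers and at 8.71, 4.95 and 7.98 in the TA livers, with no overlap. With library totals alone, the log2 fold change of Cela1 in TA VS Model was -0.98. That scaling also moved the median of all genes in this comparison from -0.00 to -0.48. A further fall of Cela1 under TA was thus within the spread of the rats on the CPM scale. With all 3 model rats, it was outside that spread only on a scale that carries a shift of all genes. The overlap in CPM came from the first model liver, whose library had the largest TMM factor (1.69). The remaining model livers, at 12.4 and 16.6 CPM, lay above every TA liver. Leaving that liver out of the TA VS Model fit gave -0.76 (SE 0.31), with an adjusted p of 0.507 by edgeR. With all rats, the upper end of the 95% interval allowed a rise of no more than 0.19 on the log2 scale.

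Against the normal livers, Cela1 stayed lower in the TA livers by a log2 fold change of -3.37 (SE 0.31, 95% interval -4.08 to -2.65), with an adjusted p of 0.00905 by edgeR. This left 9.70% of the normal level. Cela1 and Phf19 were chosen on these normal livers, so that their p-values here are not independent evidence of a fall. Without the first TA rat the adjusted p by edgeR was 0.0592, at a log2 fold change of -3.48. Of the 12179 genes tested in TA VS Normal, 0.0328% were called lower, which is 4 genes: Cela1, Phf19, Aox3 and LOC100362384. In either direction edgeR called 32 genes there, and 203 with the replicate number as a block, a pairing that the labels do not state. All 4 chosen genes were lower in the TA than in the normal livers without overlap, as were 6.81% of the genes tested; 3 rats against 3 cannot go below an exact p of 0.1.

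Scnn1a had 149, 350 and 414 reads in normal rats, 54, 39 and 69 in model rats, and 94, 72 and 133 in TA rats. The normal rats differed among themselves by more than 2-fold, with the first one lowest, but no model or TA liver reached them. The level was 23.2 ± 11.2 CPM in the normal livers, 3.29 ± 1.38 CPM in the model livers and 7.57 ± 2.06 CPM in the TA livers (SD, n = 3). The log2 fold change in Model VS Normal was -2.82 (SE 0.47).

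Scnn1a was the only one of the 4 genes with TA livers wholly above the model livers, a pattern that 10.5% of the 12781 genes tested showed in that direction. The log2 fold change in TA VS Model was 1.21 (SE 0.41, 95% interval 0.26 to 2.15), which did not pass after adjustment (adjusted p 0.267 by edgeR; exact permutation p 0.1, the smallest 3 against 3 rats allow). No gene was called in TA VS Model by edgeR (0.0% of genes tested), where 1999 genes had an unadjusted p under 0.05, DESeq2 called 526 genes and limma voom called 169. In TA VS Normal, Scnn1a was at a log2 fold change of -1.64 (SE 0.39, 95% interval -2.53 to -0.76), with an adjusted p of 0.151 by edgeR. With the replicate number as a block, the value was -1.57 and the adjusted p by edgeR was 0.0286. Scnn1a was chosen on these normal livers, so that neither p-value is independent evidence of a fall.

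Phf19 had 289, 580 and 239 reads in normal rats, 99, 62 and 47 in model rats, and 54, 71 and 60 in TA rats. The second normal rat stood highest, and the model and TA livers overlapped each other, far under the normal ones. The level was 27.1 ± 9.05 CPM in the normal livers, 3.95 ± 0.571 CPM in the model livers and 4.78 ± 1.11 CPM in the TA livers (SD, n = 3). The log2 fold change in Model VS Normal was -2.77 (SE 0.32).

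Between the TA and model livers, Phf19 differed by a log2 fold change of 0.27 (SE 0.35, 95% interval -0.54 to 1.08), with an adjusted p of 0.709 by edgeR and an exact permutation p of 0.4. The sign of this small difference depended on the scaling, with -0.24 when library totals alone were used, a scaling that moved the median of all genes in this comparison from -0.00 to -0.48. Against the normal livers, Phf19 was lower in the TA livers by a log2 fold change of -2.54 (SE 0.32, 95% interval -3.26 to -1.82), with an adjusted p of 0.0220 by edgeR. The call was lost in 3 of the 6 fits without 1 rat. By edgeR the adjusted p was 0.0868 without the first normal rat, 0.0910 without the second normal rat and 0.116 without the first TA rat, while the log2 fold change stayed between -2.63 and -2.24 in these 3 fits. The calls over all genes in the same fits were 4, 1 and 3, against 32 with all rats. Since Phf19 was chosen on these normal livers, none of its p-values against them is independent evidence of a fall.

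Rgsl2h had 146, 100 and 113 reads in normal rats, 0, 1 and 1 in model rats, and 5, 0 and 16 in TA rats. The model livers were almost empty of it, and a TA liver at 0 stood beside another with 16 reads. At the depth of the second TA liver, 0 reads allow a level of up to 0.254 CPM (3 counts), and in the first model liver up to 0.135 CPM, for counting error only. The level was 9.35 ± 2.85 CPM in the normal, 0.0455 ± 0.0395 CPM in the model and 0.517 ± 0.613 CPM in the TA livers (SD, n = 3).

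The fitted log2 fold change of Rgsl2h in Model VS Normal was -7.60 (SE 0.70), a value that rests on 2 model reads in all. With the reads of each group summed, 359 against 2, the normal level was 235 times the model level (95% interval 64.5 to 1945, counting error only). Rgsl2h passed the filter on low counts in the comparisons with normal livers through the normal group alone, and in TA VS Model it fell under the filter and was not tested. The TA livers had 21 reads against 2, a ratio of 13.8 (95% interval 3.37 to 121, counting error only), but the groups overlapped and the exact permutation p over rats was 0.4. In fits that kept the gene, the log2 fold change in TA VS Model was between 3.43 and 3.64 with adjusted p between 0.183 and 0.337 by edgeR and DESeq2.

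The TA VS Normal value of Rgsl2h was a log2 fold change of -4.16 (SE 0.78, 95% interval -5.93 to -2.38), with an adjusted p of 0.0911 by edgeR. With the replicate number as a block the value was -4.33 and the adjusted p by edgeR was 0.0253. Without the third TA rat, the one with 16 reads, the value was -5.57 and the adjusted p by edgeR was 0.0296. DESeq2 gave -4.19 and limma voom gave -5.56. The gene was chosen for its high level in these normal livers and entered the test through them, so that none of these p-values is independent evidence of a fall.

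**Figure D2:**
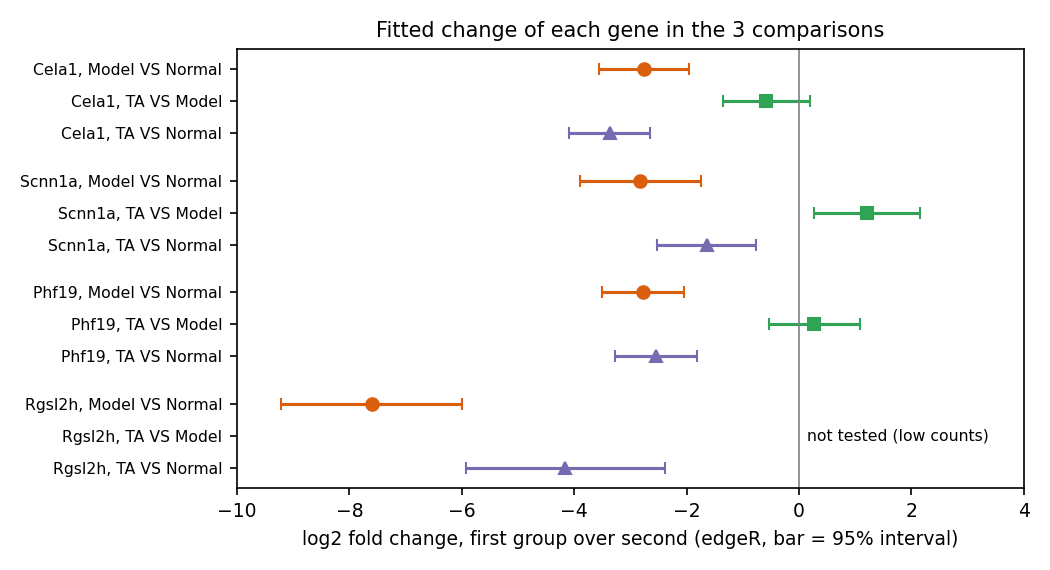
Fitted log2 fold change of each gene in Model VS Normal, TA VS Model and TA VS Normal (first group over second), with 95% intervals from edgeR and 3 rats per group. In TA VS Model the intervals of Cela1 (-1.35 to 0.19) and Phf19 (-0.54 to 1.08) include 0 and that of Scnn1a (0.26 to 2.15) does not; Rgsl2h was not tested there.

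To put the TA livers of all 4 genes on 1 scale, each TA liver was placed between the model mean (0) and the normal mean (1) on log2 CPM. Cela1 stood at -0.126, -0.367 and -0.129 in the TA rats, with a mean of -0.207 ± 0.138 (SD). Phf19 stood at -0.0102, 0.222 and 0.0684, with a mean of 0.0932 ± 0.118. Both genes thus lay around the model end in every TA rat.

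Scnn1a stood at 0.392, 0.343 and 0.598, with a mean of 0.444 ± 0.135 (SD). Rgsl2h stood at 0.256, -0.0681 and 0.509, with a mean of 0.232 ± 0.289, and its spread between the rats covered both the model level and the middle of the scale. Of the 129 genes that were called lower in Model VS Normal, the 4 included, the median position was 0.560, with the middle 50% of genes between 0.410 and 0.700. Only 4 of these 129 genes had a mean position under 0, which were Hsd17b2 at -0.313, Shisa3 at -0.300, Cela1 and Srd5a1 at -0.0949. In the order of the 129 genes, 2 lay below Cela1, 8 below Phf19, 13 below Rgsl2h and 37 below Scnn1a. All of these genes were picked for being low in the model livers, and their positions are given with no test.

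**Figure D3:**
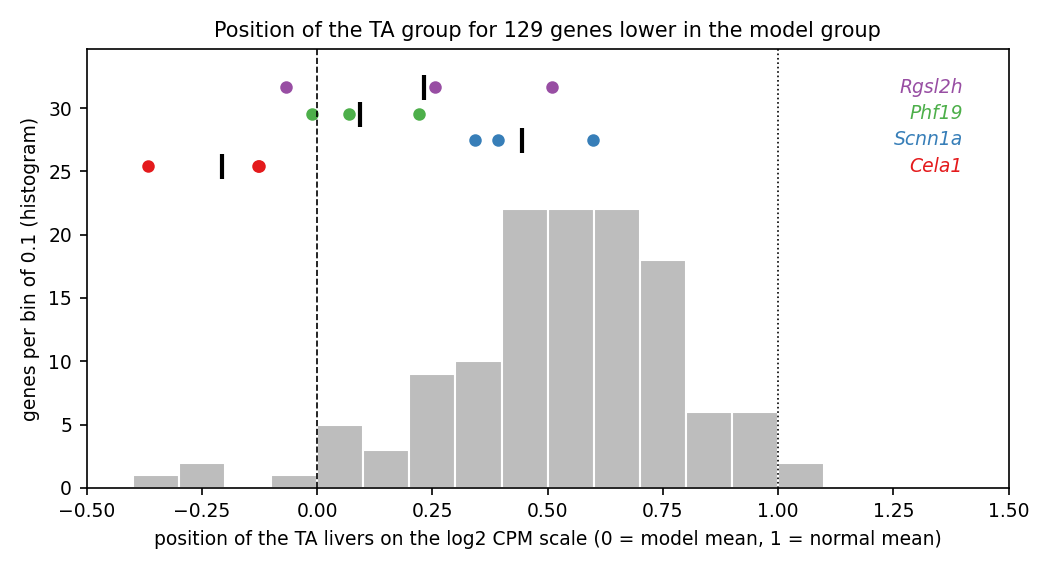
Position of the TA livers between the model mean (0, dashed line) and the normal mean (1, dotted line) on the log2 CPM scale. Grey bars count the 129 genes called lower in Model VS Normal by their mean position in bins of 0.1, and above them the points show the 3 TA rats of each of the 4 genes, with a black bar at the mean. Cela1 lies left of 0 in all 3 rats, while the median of the 129 genes is 0.560.

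Ratios between the genes within a liver do not depend on how the libraries are scaled. This comparison was chosen after the values had been seen, for the 3 genes with reads in every liver. The ratio of Cela1 to Scnn1a reads was 3.74, 4.85 and 3.41 in model rats, against 1.45, 1.00 and 0.970 in TA rats. All TA livers lay under all model livers, with a log2 difference of -1.82, an exact permutation p of 0.1 and an adjusted p of 0.3 over the 3 pairs of genes by that permutation test. The ratio was 9.39, 2.68 and 2.32 in normal rats, so that the normal livers spread around the model livers. For Cela1 to Phf19 the log2 difference was -0.83 (exact permutation p 0.3), and for Scnn1a to Phf19 it was 0.99 (exact permutation p 0.2), with overlap between the groups in both.

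Compared per length, on the deposited FPKM, Cela1 was the most abundant of the 4 genes in every group, with 65.1 ± 21.5 in the normal, 14.2 ± 1.45 in the model and 7.21 ± 2.00 in the TA livers (SD, n = 3). In the normal livers Phf19 followed with 6.04 ± 2.16, Scnn1a with 5.75 ± 2.65 and Rgsl2h with 4.03 ± 1.21 FPKM, and the ranges of these 3 genes overlapped. In the TA livers Scnn1a stood at 2.10 ± 0.548 FPKM and Phf19 at 1.17 ± 0.221 FPKM, with ranges that did not overlap. In the model livers the order of that pair was the other way round, at 1.21 ± 0.322 FPKM for Scnn1a and 1.38 ± 0.543 FPKM for Phf19, with overlap. Rgsl2h was lowest in both, at 0.0258 ± 0.0223 FPKM in the model and 0.248 ± 0.287 FPKM in the TA livers.

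The sequences before the start sites of 3 of the genes are shown because the genes fell together. They are the 250 bases upstream of the RefSeq start on assembly GRCr8, all on the minus strand and written in the direction of the gene, at chr7:133665062-133665311 for Cela1, chr3:38593855-38594104 for Phf19 and chr13:68525148-68525397 for Rgsl2h. Capitals mark matches to the motifs named after them.
Cela1: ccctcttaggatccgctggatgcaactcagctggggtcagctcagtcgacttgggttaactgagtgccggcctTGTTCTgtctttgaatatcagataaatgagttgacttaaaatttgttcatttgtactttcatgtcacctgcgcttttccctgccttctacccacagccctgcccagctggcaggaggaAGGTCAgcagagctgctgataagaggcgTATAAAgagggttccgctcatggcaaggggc
Phf19: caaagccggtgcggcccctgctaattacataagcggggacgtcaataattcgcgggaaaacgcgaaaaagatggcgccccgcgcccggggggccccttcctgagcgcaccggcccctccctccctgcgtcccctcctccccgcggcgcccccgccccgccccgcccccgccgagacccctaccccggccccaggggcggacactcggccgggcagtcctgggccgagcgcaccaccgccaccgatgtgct
Rgsl2h: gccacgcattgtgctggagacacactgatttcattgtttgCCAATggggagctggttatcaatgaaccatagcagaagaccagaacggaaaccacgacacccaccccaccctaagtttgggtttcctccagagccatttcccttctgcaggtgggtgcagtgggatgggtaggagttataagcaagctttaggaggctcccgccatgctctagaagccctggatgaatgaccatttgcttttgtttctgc

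The promoters were searched on both strands for 5 motifs, which can overlap each other: the letters TATAAA of the box that places the transcription start, the letters CCAAT of a common promoter box, the core AGGTCA of many nuclear receptor sites, the core AGAACA of glucocorticoid receptor sites, and the E-box letters CACGTG. The Cela1 promoter held TATAAA 31 bases before the start, AGGTCA 59 bases before it and, on the reverse strand, AGAACA 177 bases before it. Of 33469 rat promoters of the same length, 12.9% held TATAAA, 14.1% held AGGTCA and 17.5% held AGAACA. The Rgsl2h promoter held CCAAT 210 bases before the start, as 34.0% of promoters did somewhere, and the Phf19 promoter held none of the 5 motifs. None of the 3 held CACGTG, which 5.59% of promoters held. Phf19 had a promoter rich in G and C, at 74.0% with 31 CpG dinucleotides, against 51.2% for Cela1 (6 CpG) and 51.2% for Rgsl2h (4 CpG) and medians of 51.2% and 5 CpG over all promoters. The 3 promoters thus shared no motif among the 5 searched, and a match in letters does not show a working site.

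The fall of Scnn1a was set beside the genes that work with the channel or control it. Of 24 listed genes other than Scnn1a, 14 could be tested in Model VS Normal, of which 1 rose and 0 fell at an adjusted p under 0.05 by edgeR, against 6.86% of all genes tested called higher. The gene that rose was St14, matriptase, a membrane protease that can set off the cutting of the channel, from 3.38 to 27.5 CPM (log2 fold change 3.02, SE 0.42, adjusted p 0.0120 by edgeR). Hsd11b1, which makes active glucocorticoid in the liver, stood at a log2 fold change of -1.01 and Furin, a protease that cuts the channel subunit, at -0.77, and neither passed. Hsd11b2, which inactivates glucocorticoid in tissues that answer to aldosterone, stood at -1.85 without overlap between the groups, and Prss8, prostasin, a protease that activates the channel, at 2.49, with adjusted p of 0.0674 and 0.0540 by edgeR; both were named after their values were seen. The beta subunit Scnn1b, the partner of Scnn1a in the channel, had 0 to 9 reads in any liver and was not tested. The median log2 fold change of the 14 genes was 0.09, beside 0.02 over all genes tested.

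Among elastases, elastin and elastase inhibitors other than Cela1, 4 of 8 tested genes rose and 0 fell in Model VS Normal by edgeR, beside 6.86% of all genes tested called higher and 1.01% called lower. This list was chosen with earlier results of these data known, so that the count is a description. The genes that rose were Mmp12, the macrophage elastase (log2 fold change 6.09), Timp1, an inhibitor of matrix metalloproteases (4.10), Eln, elastin itself (4.08), and Serpinb1a, an inhibitor of neutrophil elastase (3.18), with adjusted p between 0.0104 and 0.0265 by edgeR. Timp1 is also in the list of stellate cell and fibroblast markers given above. Mmp12 had 2204, 434 and 147 reads in model rats, highest in the first one, which stood apart, and 10, 15 and 2 in normal rats. The same rat was highest for Eln (6830, 1849 and 1437 reads in model rats), Timp1 (3584, 590 and 271) and Serpinb1a (1288, 393 and 267). The summed level of 9 macrophage markers ran from 287 to 363 CPM in the normal and from 238 to 1911 CPM in the model livers. Of the 9, 2 were called higher by edgeR, Gpnmb (log2 fold change 6.72) and Trem2 (7.29). Marco (-2.17) and Clec4f (-1.50) stood lower without overlap and Vsig4 (-0.71) lower with overlap, and none of these was called. The part of macrophages in these values was not tested. Eln was still called higher in TA VS Normal, as were 0.23% of the genes tested there, with a log2 fold change of 2.52 and an adjusted p of 0.0163 by edgeR. The levels of elastin and of Cela1 thus stood on opposite sides of normal in the model livers, at 177 ± 113 CPM against 10.5 ± 2.65 CPM for Eln (SD, n = 3).

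Other genes of the exocrine pancreas were near the limit of detection in all groups. Of 14 such markers, 7 were in the tables, and their summed level ran from 3.11 to 5.15 CPM in the normal, from 2.37 to 6.69 CPM in the model and from 1.18 to 5.52 CPM in the TA livers. Cpa1 and Cela3b had 0 reads in the normal livers, where Cela1 stood at 60.4 to 116 CPM. The other pancreatic elastase tested, Cela2a, was at 1.01 CPM in the normal and 0.989 CPM in the model livers. Ctrc, a chymotrypsin, had 11, 10 and 2 reads in normal rats, 86, 18 and 24 in model rats and 7, 0 and 15 in TA rats. Cpb1, a carboxypeptidase with too few reads to be tested, had 33, 11 and 7 reads in normal rats, 1, 1 and 0 in model rats and 4, 4 and 13 in TA rats, so that its model livers lay under its normal livers as those of Cela1 did. Whether pancreatic RNA had a part in the Cela1 level was not tested.

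No call was made among the tested genes of PRC2, the complex that Phf19 serves. Of the 12 subunits, partners and H3K27 demethylases tested other than Phf19, 0 rose and 0 fell in Model VS Normal by edgeR at an adjusted p under 0.05, and 3 (Ezh1, Rbbp7 and Phf1) had an unadjusted p under 0.05. Over all genes tested there, 7.87% were called and 28.9% had an unadjusted p under 0.05. With only 12 genes, these counts do not set PRC2 apart from all genes. Rbbp7, a histone-binding subunit, stood at a log2 fold change of 0.57, Phf1, a Polycomb-like protein related to Phf19, at -0.79, and Kdm6b, which removes the PRC2 mark, at -0.47. Ezh2, the catalytic subunit, stood at 0.32, and Mtf2, the remaining Polycomb-like protein, at 0.21, both named after their values were seen. A change of the size Phf19 showed was not found in either relative.

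Of the RGS genes tested other than Rgsl2h, 5 of 13 rose and 0 fell in Model VS Normal by edgeR, beside the same 6.86% and 1.01% of all genes. They were Rgs4 (log2 fold change 4.44), Rgs2 (2.81), Rgs1 (2.60), Rgs10 (2.51) and Rgs19 (1.77), proteins that shorten G protein signals in muscle, blood and other cells, with adjusted p between 0.0163 and 0.0468 by edgeR. Their levels in the normal livers were low, between 0.763 and 4.32 CPM. The summed level of 7 cholangiocyte markers ran from 37.5 to 62.1 CPM in the normal and from 152 to 2020 CPM in the model livers. The highest sum came mostly from Spp1 in the first model rat, with 41206 reads against 687 and 378 in the other model rats. Of the 7 markers, 5 were called higher by edgeR and Spp1 was not (adjusted p 0.0524). Lymphocyte markers went from 24.4 to 34.5 CPM in the normal to 44.0 to 109 CPM in the model livers. The part of these cells in the RGS values was not tested. Over the 4 families together, 10 of 47 tested genes rose and 0 fell in Model VS Normal by edgeR (6.86% and 1.01% of all genes tested). In TA VS Model 0 of 49 were called, as were 0.0% of all genes tested. In TA VS Normal 1 of 47 rose, beside 0.23% of all genes tested. The first of these counts was 0 by edgeR without any 1 of the normal rats, when 0 to 51 genes were called in all. By DESeq2 it was 19, when 2735 genes were called in all. The gene called in TA VS Normal, Eln, was not called without any 1 of the normal rats or without the first TA rat. With the replicate number as a block, 3 of the family genes were called in that comparison, where 203 genes were called in all. The gene lists were chosen with earlier results of these data known, so that the family counts are a description.

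**Figure D4:**
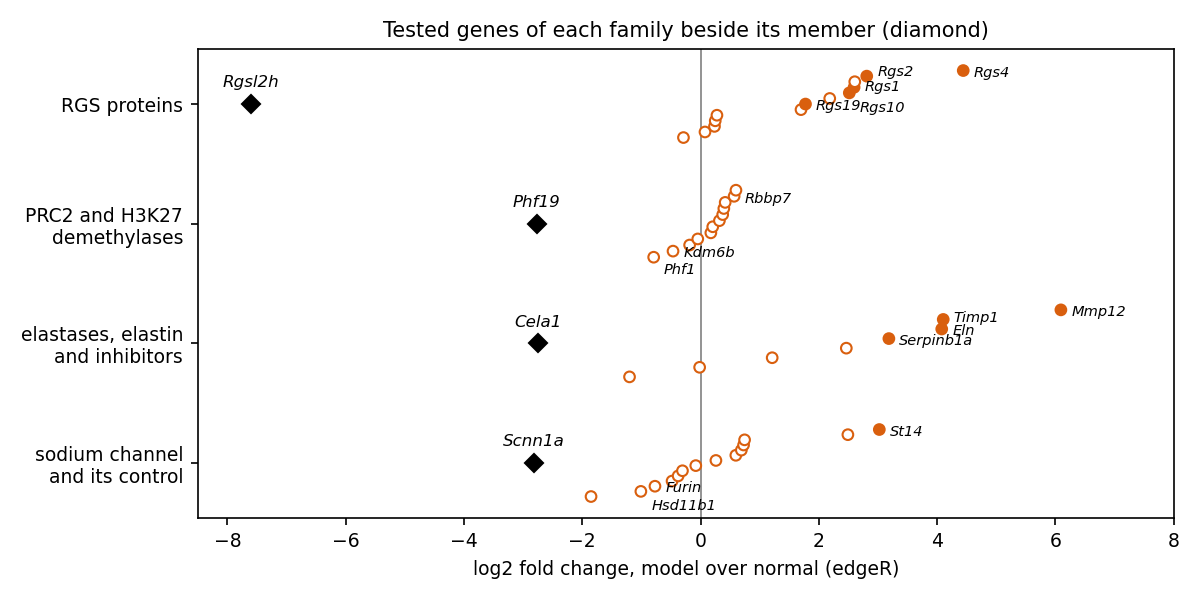
Log2 fold change in Model VS Normal (edgeR, 3 rats per group) of the tested genes of each family, with Scnn1a, Cela1, Phf19 and Rgsl2h as black diamonds. Filled circles passed an adjusted p of 0.05 and open circles did not; 10 of 47 family genes passed, all on the higher side, while the 4 chosen genes lie between -2.75 and -7.60.

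None of the 7 neighbours on the RefSeq assembly GRCr8 that could be tested was called in Model VS Normal by edgeR at an adjusted p under 0.05, while 7.87% of the 12730 genes tested were. Of the 7, 1 neighbour, Ltbr, had an unadjusted p under 0.05, beside 28.9% of all genes tested. Bin2 and Galnt6, beside Cela1, stood at log2 fold changes of 0.89 and 1.07 in Model VS Normal, with adjusted p of 0.236 and 0.317 by edgeR. Ltbr, a receptor of the tumor necrosis factor family beside Scnn1a, had 3104, 3952 and 3423 reads in normal rats, 3179, 2710 and 2573 in model rats and 2628, 2667 and 3288 in TA rats. On the CPM scale it was lower in the model livers and higher again in the TA livers without overlap, at -0.67 and 0.39 on the log2 scale, but neither passed (adjusted p 0.166 and 0.516 by edgeR). Tnfrsf1a, on the other side of Scnn1a, stood at 0.13, and Psmd5 and Traf1, beside Phf19, at -0.36 and 0.54.

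Rgsl2h lies within the RefSeq span of Glul, which encodes glutamine synthetase, an enzyme of hepatocytes around the central vein. Glul had 7436, 6080 and 5031 reads in normal rats, 10896, 2750 and 3215 in model rats and 6256, 3610 and 5879 in TA rats. The first model rat had the most Glul reads of all 9, before scaling, and no read of Rgsl2h. Its library also had the largest TMM factor (1.69), which lowers its level in CPM. The Glul groups overlapped (log2 fold change in Model VS Normal -0.67, adjusted p 0.369 by edgeR). The build used in counting is unclear and the strand is not given in the sources used here, so that this overlap may not hold there. Whether reads shared by the genes had a part in these counts was not tested. Rgsl1, the relative of Rgsl2h, had 0 to 18 reads in any liver, and Cacna1e, the next gene listed, had 0 to 2.

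The profiles most like each of the 4 over the 9 livers were found by Pearson's r of log2 CPM among 10939 or 10940 other genes, as a description with no test, since all points share 3 groups and the same libraries. For Cela1 they were Dnajc19 (r = 0.942), a mitochondrial import protein, Srd5a1 (0.934), steroid 5-alpha reductase, and Kdm4a (0.898), a histone demethylase. For Scnn1a they were Pih1d1 (0.988), Ubl4a (0.976) and Ndufs8 (0.970), the last a subunit of mitochondrial complex I. For Phf19 they were Orai1 (0.960), a calcium channel, Nhlrc1 (0.936), a ubiquitin ligase, and Amigo2 (0.934), an adhesion protein. For Rgsl2h they were Ctsh (0.955), a lysosomal protease, Mrps33 (0.953) and Cox6a1 (0.945), the last pair mitochondrial. Among the 4 genes themselves, r ran from 0.738 for Cela1 with Scnn1a to 0.906 for Cela1 with Rgsl2h.

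A high r over the 9 livers did not mean the same order of the model and TA means. Dnajc19, for example, had 32.9 ± 3.63 CPM in the model and 34.5 ± 1.12 CPM in the TA livers (SD, n = 3), where the mean of Cela1 was lower in the TA livers. Amigo2 had 4.97 ± 1.22 and 4.64 ± 0.593 CPM, where the mean of Phf19 was higher in them. All of these differences lay within the spread of the rats. Srd5a1 went from 109 ± 40.0 CPM in the normal to 37.6 ± 13.3 in the model and 32.8 ± 2.59 in the TA livers (SD, n = 3). Pih1d1 went from 15.7 ± 2.10 CPM to 7.60 ± 1.22 and 9.88 ± 0.897, and Orai1 from 41.3 ± 2.67 CPM to 26.8 ± 1.64 and 30.3 ± 2.22. The last pair fell by less than Scnn1a and Phf19, which went to about 14.2% and 14.6% of their normal levels.

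By p, Rgsl2h, Phf19, Cela1 and Scnn1a took places 1, 3, 4 and 12 among the 6244 genes that were lower in Model VS Normal, and by size of the fall places 3, 33, 36 and 31. The genes next in order of p after Scnn1a were Fn3k (log2 fold change -2.68), a kinase that repairs glycated proteins, LOC680520 (-7.34), Dnajc12 (-1.44), a co-chaperone, and Slc46a1 (-1.97), the proton-coupled folate transporter. Order by p was not the edge of the choice, since Mup4, LOC367746, Tenm2, Rnd2 and RGD1310209, at places 2, 5, 6, 7 and 8, were not among the chosen genes. In the model rats Scnn1a had 54, 39 and 69 reads and Fn3k had 34, 22 and 55.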

How the data were processed

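Liver RNA of 9 rats in 3 groups was measured by RNA-seq. Per the methods, the authors trimmed reads with Trimmomatic and Cutadapt, mapped them with STAR and counted them with HTSeq-count (versions not given in the sources used here). The deposited tables hold raw read counts per gene symbol for each library, without normalization. They also hold FPKM values that the authors scaled to gene length and library total. The methods name a human genome build and the labels a mouse build, while the symbols are written as rat symbols, so no coordinates were taken from the files; 15330 of 16730 symbols (91.6%) matched RefSeq GRCr8, which gave names, neighbours and promoters. The authors' normalized values, log2 fold changes, p-values and adjusted p-values were not used.

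Groups came from the labels, and p-values measure only the spread between these samples. Counts were tested with edgeR 4.0.16 (quasi-likelihood test, TMM, filterByExpr, only the libraries of the groups compared, Benjamini-Hochberg over all genes tested) in R 4.3.3, with a threshold of 0.05. The SE was obtained from the F statistic, as the size of the log2 fold change over the root of F. For TA VS Normal, the genes shared by both tables (16730) were used. Log2 CPM used a prior count of 2, and exact permutation tests were two-sided (SciPy 1.17.1). Alternatives were DESeq2 1.42.0, limma 3.58.1 voom with sample quality weights, other scalings and filters, fitting all 9 livers jointly, a block for the replicate number, and fits without each rat. The replicate numbers come from the labels. They are not stated to mark pairs or batches. For TA VS Normal, rats with the same number deviated together from the means of their groups (r between 0.258 and 0.501). For rats with different numbers, r was between -0.452 and 0.171. A pairing in that comparison is thus inferred from these same data, with 3 rats per group, and was not used in the main test. The blocked value is given as an alternative where it changed a call. On simulated data for TA VS Model with 12781 genes, changes were planted only in genes with a mean above 5 CPM. The test called 74% of genes changed by a log2 fold of 2 and 98% of those changed by 3. These shares do not cover lower genes, such as Phf19 and Rgsl2h, or smaller changes, such as those fitted for Cela1, Scnn1a and Phf19. The 4 genes and the gene lists were chosen with earlier results of these data known. Named genes were the 4, up to 5 called genes per family (or the most abundant, to make 3), nearest listed neighbours, the 3 most similar profiles (mean log2 CPM 1 or more), and the 4 genes next by p; others are named after their values were seen.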

Additional observations from a re-analysis of the deposited data

How the results depend on the processing

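Of 262 alternative values, 222 kept their direction, side of the threshold or size, and 3 changed sign. With library totals alone, Phf19 in TA VS Model went to -0.24 and its position to -0.0859, and on log2(FPKM + 1) its position was -0.0743. The position of Cela1 moved to -0.443 on log2(FPKM + 1) and to -0.471 with library totals. Scnn1a in TA VS Normal passed with DESeq2 (-1.65) and with the replicate block (-1.57), and Rgsl2h passed with DESeq2 (-4.19), voom (-5.56), the newer quasi-likelihood form (-4.14), no filter (-4.16) and the replicate block (-4.33), in a comparison with the normal livers that both genes were chosen on. The called genes of the 4 families went from 10 in Model VS Normal to 19 with DESeq2 and 16 with voom. Calls over all genes went from 1002 to 2735 and 3433 in the same settings. In TA VS Model the family calls went from 0 to 6 and 1, where all calls went from 0 to 526 and 169. In TA VS Normal they went from 1 (32 over all genes) to 3 with DESeq2 (341) and 2 with no filter (76). They were 0 with all 9 livers in 1 fit (14 over all genes) and 3 with the replicate block (203). Rgsl2h in TA VS Model has values only from DESeq2, no filter and all 9 livers in 1 fit.

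Leaving out 1 rat at a time gave, in Model VS Normal, -3.01 to -2.48 for Cela1, -3.22 to -2.44 for Scnn1a, -2.98 to -2.49 for Phf19, -8.06 to -6.93 for Rgsl2h and 0 to 14 called family genes. When normal replicate 2 or 3 was left out, edgeR called 0 genes in Model VS Normal (2727 and 3119 at an unadjusted p under 0.05). For TA VS Model they were -0.76 to -0.33 for Cela1, 0.97 to 1.61 for Scnn1a and 0.09 to 0.42 for Phf19. For TA VS Normal the ranges were -3.57 to -3.09 for Cela1, -1.95 to -1.25 for Scnn1a, -2.75 to -2.24 for Phf19, -5.57 to -3.61 for Rgsl2h and 0 to 1 called family genes.

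Over all genes, Model VS Normal called 1002 genes, against 2735 with DESeq2, 3433 with voom, 1980 with library totals (which moved the median log2 fold change from 0.02 to 0.65), 1757 with all 9 livers in 1 fit and 0 to 2537 without 1 rat. TA VS Normal called 32, against 341 with DESeq2, 126 with voom, 56 with library totals, 14 with all 9 livers in 1 fit, 76 with no filter, 203 with the replicate block and 1 to 61 without 1 rat. In Model VS Normal and TA VS Model the replicate numbers did not pair the rats (r between -0.06 and 0.22), and the block changed no call of the 4 genes there. Apart from the values given here, it changed no other call of them. The cause of these changes was not tested. Depth limits Rgsl2h most, with 0 to 16 reads in each CCl4-treated liver, and with 3 rats per group no exact test could go below 0.1.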

Other observations

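The 3 other genes whose mean position in the TA livers was below the model mean were named after their values were seen. Hsd17b2, which inactivates estradiol and testosterone, had 5207, 3381 and 8009 reads in normal rats, 1228, 1150 and 1579 in model rats and 323, 1187 and 580 in TA rats. Its position was -0.313 ± 0.451 (SD, n = 3), and its TA and model livers overlapped. Srd5a1, which reduces testosterone and other steroids, had 1756, 1765 and 790 reads in normal rats, 625, 485 and 747 in model rats and 464, 356 and 473 in TA rats. Shisa3 had 34, 52 and 23 reads in normal rats, 4, 6 and 10 in model rats and 2, 1 and 5 in TA rats. Their TA VS Normal log2 fold changes were -3.01, -1.76 and -3.71, with adjusted p of 0.103, 0.0587 and 0.0545 by edgeR, and the TA livers of each lay under the normal livers without overlap.

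Of the other genes called lower in TA VS Normal, Aox3, an aldehyde oxidase of the liver, had 1057, 927 and 502 reads in normal rats, 49, 2 and 138 in model rats and 142, 134 and 73 in TA rats (log2 fold change -2.85, adjusted p 0.0236 by edgeR). LOC100362384 had 1878, 1764 and 1499 reads in normal rats, 5077, 993 and 729 in model rats and 725, 661 and 715 in TA rats (-1.33, adjusted p 0.0431 by edgeR). Unlike the 4 chosen genes, LOC100362384 overlapped between the model and the normal livers, since the first model rat had the most reads of all 9.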
